A study of Mus musculus with 12 samples.

Results

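Adipocyte nuclei of the depot labelled mPRAT were compared between mice of 1 and 2 months of age. They came from single-nucleus RNA sequencing, in which each RNA molecule caught from a nucleus is counted once by its molecular identifier (UMI). Nuclei entered with 300 or more genes detected and no more than 10% of their UMIs from the mitochondrial genome. It counted as an adipocyte nucleus when the UMIs of Adipoq, Plin1, Plin4, Lipe, Cidec and Acsl1 summed to at least 3 and exceeded the sum of Flt1, Ptprb, Lama2, Dcn, Mrc1 and Ptprc, genes of vessels, stroma and macrophages. The members were thus selected on the measured UMIs of these 12 genes and on their mitochondrial UMIs, whose values are given only as description. The rule found 2678 of 5391 kept nuclei at 1 month and 4165 of 6156 at 2 months. Together these are 6843 of the 74816 adipocyte nuclei that the same rule finds in the 12 libraries of the series.

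The series holds 1 library for each of 12 combinations of depot, age and housing temperature. Both mPRAT libraries used here came from C57BL/6J mice, males fed normal chow and kept at 22 °C, aged 4 weeks (1 month) and 8 weeks (2 months). The labels list no allele or drug, do not spell out mPRAT, which is usually read as medial perirenal adipose tissue, and do not give how many animals stand behind a library. In the 2 libraries of the depot labelled iBAT, set beside them, the strain, sex, diet, temperature and ages were the same. With 1 library in a group no difference has a replicate check, and age cannot be told apart from the library, its collection or the time of day. All comparisons are therefore descriptions of libraries, given by size and with no test.

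Brown adipocytes burn fatty acids and glucose to make heat. Noradrenaline binds beta-adrenergic receptors, adenylyl cyclases make cAMP, and the cAMP-activated kinase switches on lipolysis and a set of genes that includes the uncoupling protein Ucp1, the coactivator Ppargc1a and the deiodinase Dio2, which makes active thyroid hormone inside the cell. Brown adipocytes also build fatty acids and triglycerides from glucose, and fat around the kidney is known to lose brown features as an animal matures.

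Many genes of this programme carry cAMP response elements near their start. The promoter windows of 4 genes that were higher at 2 months are shown because each of the 4, which are among the highest genes described below, holds letters of that element. They are from RefSeq on GRCm38.p6, run from 250 bases before to 50 bases after the transcription start, and read 5′ to 3′ on the gene's strand. Capitals mark TGACG or its reverse complement, the 8-base palindrome TGACGTCA that contains it, and the E-box CACGTG, searched on both strands.
Dio2 (chr12:90738989-90739288, minus strand): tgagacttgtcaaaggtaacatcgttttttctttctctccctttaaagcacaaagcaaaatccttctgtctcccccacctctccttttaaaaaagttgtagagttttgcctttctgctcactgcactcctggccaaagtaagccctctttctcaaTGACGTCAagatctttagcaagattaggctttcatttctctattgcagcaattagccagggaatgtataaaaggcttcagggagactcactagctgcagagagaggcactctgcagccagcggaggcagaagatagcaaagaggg
Gk (chrX:85776770-85777069, minus strand): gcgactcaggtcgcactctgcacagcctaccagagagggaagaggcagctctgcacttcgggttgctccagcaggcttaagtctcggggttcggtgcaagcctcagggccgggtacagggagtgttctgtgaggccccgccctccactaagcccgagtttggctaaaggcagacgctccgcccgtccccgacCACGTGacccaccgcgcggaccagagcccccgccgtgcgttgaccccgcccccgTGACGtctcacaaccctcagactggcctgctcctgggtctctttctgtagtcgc
Noct (chr3:51224197-51224496, plus strand): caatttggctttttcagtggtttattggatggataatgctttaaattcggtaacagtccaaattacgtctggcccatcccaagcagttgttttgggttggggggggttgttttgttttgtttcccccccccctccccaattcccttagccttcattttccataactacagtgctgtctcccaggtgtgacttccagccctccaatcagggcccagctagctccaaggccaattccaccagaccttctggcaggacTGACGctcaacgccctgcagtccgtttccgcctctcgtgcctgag
Ppargc1a (chr5:51567676-51567975, minus strand): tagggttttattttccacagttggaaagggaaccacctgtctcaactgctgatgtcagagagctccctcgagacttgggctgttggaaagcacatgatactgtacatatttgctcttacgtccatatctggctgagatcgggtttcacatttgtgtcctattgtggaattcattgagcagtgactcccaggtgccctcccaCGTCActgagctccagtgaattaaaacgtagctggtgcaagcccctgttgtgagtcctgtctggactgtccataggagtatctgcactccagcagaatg

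Dio2 holds TGACGTCA at base -95, where base -1 is the one before the RefSeq start. For Dio2 that start lies 600 bases upstream of the GENCODE gene span given below. Gk holds TGACG at -4 and CACGTG at -58, Noct TGACG at 6, and Ppargc1a TGACG at -49 on the opposite strand. Of all 32851 windows, 1.79% hold TGACGTCA, 20.8% hold TGACG and 7.15% hold CACGTG. Some genes have several windows, and by gene these shares are 2.03%, 23.0% and 8.09% of 27025 genes. Among the 12 genes that were highest at 2 months, described below, 9 matched the table, and 6 of these 9 hold TGACG, namely Dio2, Gk, Hsd17b12, Noct, Nr4a3 and Ppargc1a. The window of Adcy5, an adenylyl cyclase gene also among these 12, holds none of the 3 motifs. Among the 12 lowest, 10 matched and 3 hold it, namely Fam20c, Impdh1 and Tfrc. A match describes the letters of a window and is no evidence of binding.

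The identity of the nuclei was checked before the values were read. Lipe had a UMI in 84.7% of adipocyte nuclei at 1 month and 81.6% at 2 months, Plin1 in 67.8% and 69.4%, Cidec in 65.6% and 73.5%, and Adipoq in 22.7% and 25.2%. These genes helped to choose the nuclei, so their presence is no finding. None of the 4 had a UMI in 50 nuclei (1.87%) at 1 month and 150 (3.60%) at 2 months, and 34 and 111 nuclei had passed on Acsl1 alone, an acyl-CoA synthetase that kidney tubules also express. At the edge of the rule, 231 and 225 nuclei were inside with a sum of exactly 3, and 253 and 298 were outside with a sum of 2. A further 26 in each library had a sum of 3 or more that did not exceed the other genes.

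Markers of kidney tubules were present among these nuclei. The 7 proximal tubule markers together measured 167 counts per 1000000 counts (CPM) in adipocyte nuclei at 1 month and 704 CPM at 2 months, against 1.89 to 3.08 CPM in iBAT, and 5 of the 6 that could be compared were at least 2-fold higher at 2 months, against 2.41% of all genes compared. In the 50 nuclei without the 4 adipocyte markers at 1 month their level was 139.6 CPM, against 168 CPM in the rest. At 2 months it was 4129 CPM in the 150 such nuclei and 515 CPM in the rest. The mesothelial list measured 42.1 and 118 CPM, and the list of urothelial and other epithelial markers 86.9 and 171 CPM. In the mesothelial list only Krt19 and Upk1b could be compared, with log2 ratios of 1.36 and 1.54. Its members Msln, Upk3b and Wt1 were under the minimum level, so its sum does not by itself mark mesothelium. Distal tubule markers measured 113 and 169 CPM in sum, but not all in 1 direction. Of the 2 that could be compared, Slc12a1 had a log2 ratio of -1.63 and the other 0.97. Nuclei with any distal tubule UMI were 9.11% and 5.28%, and 36 and 21 nuclei had at least 3. In the other kept nuclei the distal list measured 1175 and 763 CPM. Adrenal markers measured 30.3 and 23.2 CPM, much as in iBAT, where they measured 22.9 and 24.0 CPM. Of the adrenal markers only Mc2r could be compared, and it was at least as high in adipocyte nuclei as in the others where it peaked. Adrenal marker UMIs are thus not particular to nuclei of another tissue. Leaving out every nucleus with any UMI of these lists left 1788 and 2413 nuclei, and values without the marked nuclei are given below. A single UMI was enough to mark a nucleus, and 33.2% and 42.1% were marked. At least 3 proximal tubule UMIs were held by 64 nuclei (2.39%) and 100 nuclei (2.40%), which carried 68.3% and 91.3% of those UMIs. The markers themselves are at 0 in the nuclei left by construction, so none of them is given there.

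Endothelial markers, by contrast, measured 75.5 and 36.2 CPM, mural markers 120 and 55.0 CPM, stromal markers 204 and 154 CPM, macrophage markers 21.2 and 17.5 CPM, lymphocyte markers 18.1 and 10.0 CPM, muscle markers 16.3 and 7.46 CPM and Schwann cell markers 177 and 165 CPM. Of all these marker genes, the muscle gene Myh4 and the adrenal gene Cyp11b2 had 0 UMIs in both libraries, and Cyp11b1 had 0 at 2 months. Adipocyte nuclei had a median of 1777 UMIs at 1 month and 1798 at 2 months, with 5813742 and 10191240 UMIs in all. Mitochondrial genes took 0.744% and 1.01% of these UMIs. The mitochondrial limit had removed 7.42% of barcodes with enough genes at 1 month and 22.1% at 2 months. The libraries shared 10 barcodes, 0.171% of the smaller one. The part of these differences in any gene's value was not tested beyond the values given.

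Across the 8744 genes with a mean of at least 10 CPM, the median log2 ratio of 2 over 1 months was -0.04, taken after adding 5 CPM to each level, as are all log2 values below. A gene was counted as different at 2-fold. By that size 211 genes (2.41%) were higher at 2 months and 96 (1.1%) were lower, 307 in all (3.51%). Of the 211 higher genes 186, and of the 96 lower ones 52, had a higher level in the other kept nuclei of the library where they peaked. Of the 4637 genes at least as high in adipocyte nuclei as in the other nuclei of that same library, 25 (0.539%) were higher and 44 (0.949%) lower, together 1.49%. Since the library where a gene peaks decides this class, a difference can itself admit a gene. Gk, Gdpd5, Arap1 and Idh2, described below, are in it through 1 library only. Of the 3519 genes at least as high in adipocyte nuclei in both libraries, 21 (0.597%) were higher and 36 (1.02%) lower, together 1.62%. With TMM scaling, which moved the median of all genes to 0.12, the share of 2-fold genes that were higher went from 68.7% to 84.7%. Without the marked nuclei it was 32.4%, with the mean of single nuclei 48.1%, and after thinning 50%.

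**Figure D1:**
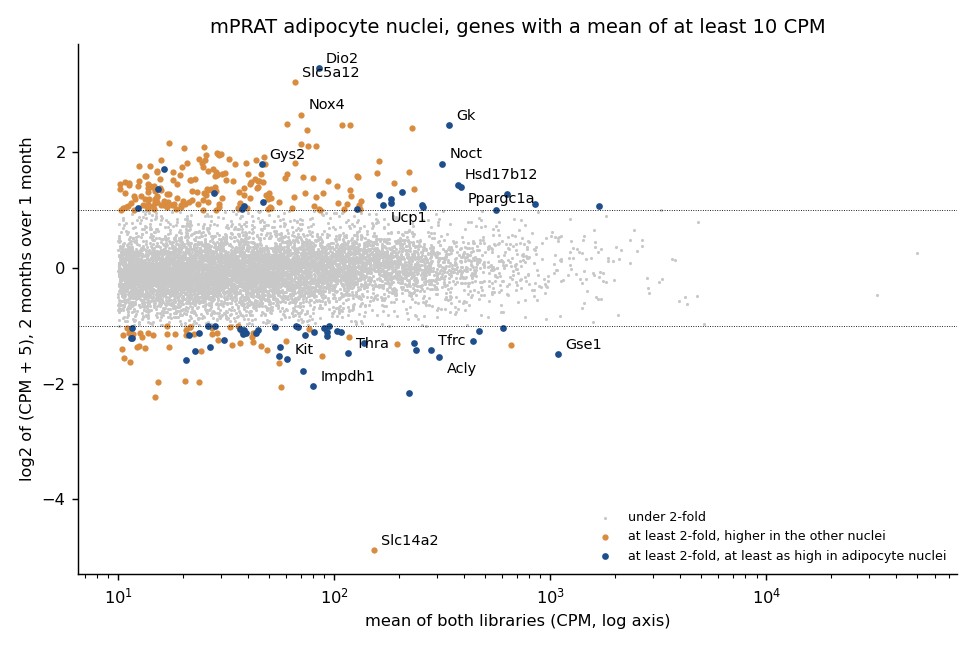
Each point is 1 of 8744 genes, with the mean CPM of both libraries on a log axis and the log2 ratio of 2 over 1 months. Blue points, at least as high in adipocyte nuclei as in the others in the library where they peak, include Dio2 at 3.46 and Impdh1 at -2.04, while orange points, higher in the other nuclei, make up most of the genes above the upper dotted line.

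The 5 genes farthest from 0 among those higher in the other nuclei include several of the kidney tubule. Slc5a12, a lactate transporter of the proximal tubule, measured 8.77 CPM at 1 month and 123 CPM at 2 months, a log2 ratio of 3.21, and is itself one of the proximal tubule markers. Without the marked nuclei the log2 ratio of Nox4, an NADPH oxidase abundant in kidney, went from 2.65 to 0.56, that of Kcnj15, a potassium channel, from 2.50 to 0.69, and that of Dab2, an endocytic adaptor, from 2.48 to 0.38. The urea transporter gene Slc14a2 measured 301 CPM at 1 month and 5.40 CPM at 2 months. 1 nucleus held 29.1% of its UMIs at 1 month, and its log2 ratio went from -4.88 to -2.26. Of the 186 higher genes of this kind, 7 are markers used to leave nuclei out. Among the other 179, 28 were still 2-fold higher without the marked nuclei, 16 of them at a mean of at least 10 CPM, and the median log2 ratio went from 1.35 to 0.35. One that stayed, named after its value was seen, is the glutathione transferase gene Gstm1, at 2.47 and 2.39. Of the 25 that were at least as high in adipocyte nuclei where they peaked, 23 were still 2-fold higher, among them all 21 that were so in both libraries. Of the 44 lower genes of the latter kind, 32 were still 2-fold lower, and of the 36 that were at least as high in both libraries 25 were.

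**Figure D2:**
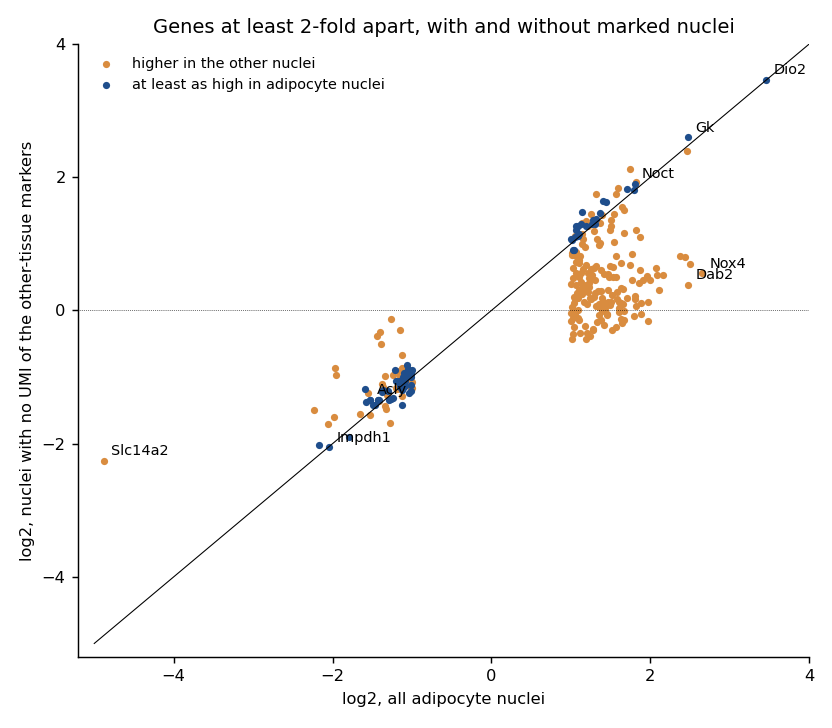
Each point is 1 of the 307 genes at least 2-fold apart, other than 8 marker genes that are at 0 by construction, with its log2 ratio in all adipocyte nuclei (x) and in nuclei with no UMI of the kidney, epithelial, mesothelial or adrenal markers (y); the line marks equal values. Blue points such as Dio2 and Gk lie near the line, while most orange points to the right, such as Nox4 at 2.65 and 0.56, lie below it.

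Dio2 (ENSMUSG00000007682, GRCm38 chr12:90724552-90738438, minus strand) stood highest among the adipocyte genes. It encodes the deiodinase that activates thyroid hormone. It had 58 UMIs at 1 month, 9.98 CPM (95% exact Poisson interval 7.58 to 12.9), and 1626 UMIs at 2 months, 160 CPM (152 to 167). The 2-month level was 16.0-fold the 1-month level (12.3 to 21.2), and the intervals did not overlap. All intervals here cover counting error only. In the other nuclei it measured 0.578 and 5.71 CPM. The share of adipocyte nuclei with a Dio2 UMI, after each nucleus was thinned to 1000 UMIs, was 0.929% of 2475 nuclei (exact binomial interval 0.590 to 1.39) and 12.1% of 3475 (11.1 to 13.3). Thinning left out 203 and 690 shallower nuclei, and the unthinned shares were 1.64% and 17.6%. In vascular, stromal and macrophage nuclei, with median depths of 1236 and 1407 UMIs, the thinned shares were 0 of 284, which allows up to 1.06%, and 1.71% of 293.

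Ppargc1a (chr5:51454250-51567726, minus strand), the coactivator of mitochondrial and thermogenic genes, measured 209 CPM (197 to 221) at 1 month and 561 CPM (547 to 576) at 2 months, a log2 ratio of 1.41. Its thinned share was 17.1% and 31.3%, with 2.46% and 2.39% in the vascular, stromal and macrophage nuclei. Noct (chr3:51224447-51251644, plus strand), a phosphatase of NADPH related to the deadenylases and known for rhythmic expression, measured 138 CPM (128 to 148) and 493 CPM (479 to 507), a log2 ratio of 1.80. Its share was 12.7% and 36.1%, against 2.46% and 2.39% in those background nuclei. For both genes the 2-month library was the higher by level and by share, and no interval overlapped.

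Gk (chrX:85701937-85776819, minus strand), the glycerol kinase that lets brown adipocytes reuse glycerol for triglycerides, measured 100.6 CPM (92.6 to 109) and 580 CPM (565 to 594), a log2 ratio of 2.47. The share of nuclei with a Gk UMI was 9.25% and 31.9%, with a background of 3.52% and 4.10%. In the other kept nuclei Gk also differed, at 148 and 285 CPM. Without the marked nuclei its log2 ratio was 2.60.

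Among thermogenic genes, 5 of the 14 tested were at least 2-fold higher and none was lower, against 2.41% and 1.1% of all tested genes, with a median of 0.09 against -0.04. The count was 4 of 14 without the marked nuclei. The list's mean was 0.59, and its median was -0.00733 with no mitochondrial limit. Ucp1 measured 106 CPM (98.2 to 115) and 231 CPM (222 to 241), a log2 ratio of 1.08 that was under 2-fold with no mitochondrial limit. The fatty acid transport gene Slc27a2 had a log2 ratio of 1.35. It was at a higher level in the other nuclei, and its ratio was 0.98 without the marked nuclei. Among the other members the beta-3 receptor Adrb3 had a log2 ratio of 0.05, Cidea -0.15, Prdm16 -0.14 and Ebf2 0.13. The thioesterase gene Acot11 had -0.82 and the cytochrome oxidase subunit Cox8b -0.57. The list thus differed at a few genes and not as a block, and the list's members Elovl3 and Cox7a1 were under the minimum level.

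The adrenergic and cAMP list had 3 of 21 members higher and 1 lower, against 2.41% and 1.1% of all tested genes, and a median of 0.08 that was -0.023 with no mitochondrial limit. Of its members 2 of 20 were higher and none lower without the marked nuclei. The adenylyl cyclases Adcy3, at 113 and 254 CPM, and Adcy5, at 115 and 294 CPM, had log2 ratios of 1.13 and 1.31. Adcy9, an adenylyl cyclase gene outside the list and named after its value was seen, was lower, with -1.05. Without the marked nuclei Adcy9 measured 865 and 458 CPM, a ratio of -0.91. In those nuclei Adcy3 measured 121 and 303 CPM, and Adcy5 132 and 350 CPM. Cyclase genes thus differed in both directions. The phosphodiesterase Pde3b, which breaks down cAMP, had 0.66 over all adipocyte nuclei. Pde4b, at 5.33 and 17.5 CPM, had a ratio of 1.12, and 0.30 without the marked nuclei, and 1 nucleus held 23.0% of its UMIs at 2 months. Pde10a was lower, at 37.7 and 10.7 CPM, with 53.9% of its 1-month UMIs in 1 nucleus, and its ratio of -1.44 was -0.38 without the marked nuclei. Nr4a3, a nuclear receptor of the immediate early class, measured 6.36 CPM (4.48 to 8.77) and 24.2 CPM (21.3 to 27.5), a ratio of 1.36. Of the immediate early and stress list, none of the 10 tested members was 2-fold apart.

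The remaining genes among the 12 highest were of mixed function. Gys2, the glycogen synthase known from liver, measured 17.9 CPM (14.6 to 21.7) and 74.6 CPM (69.4 to 80.1). Hsd17b12, an enzyme of very long chain fatty acid elongation, measured 199 and 547 CPM, a ratio of 1.44 on the log2 scale. Lamb1, a laminin chain of the basement membrane, measured 110 and 258 CPM. Adtrp, a hydrolase of fatty acid esters of hydroxy fatty acids, measured 92.4 and 230 CPM. The ubiquitin ligase gene March3 measured 367 and 896 CPM, and Adam2, a gene best known from sperm, 4.99 and 27.6 CPM. In each of these 6 the Poisson intervals of the libraries were apart. The thinned share of March3 was 25.1% and 47.1%. In the vascular, stromal and macrophage nuclei it was 14.1% and 26.3%, so this background was higher at 2 months too.

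**Figure D3:**
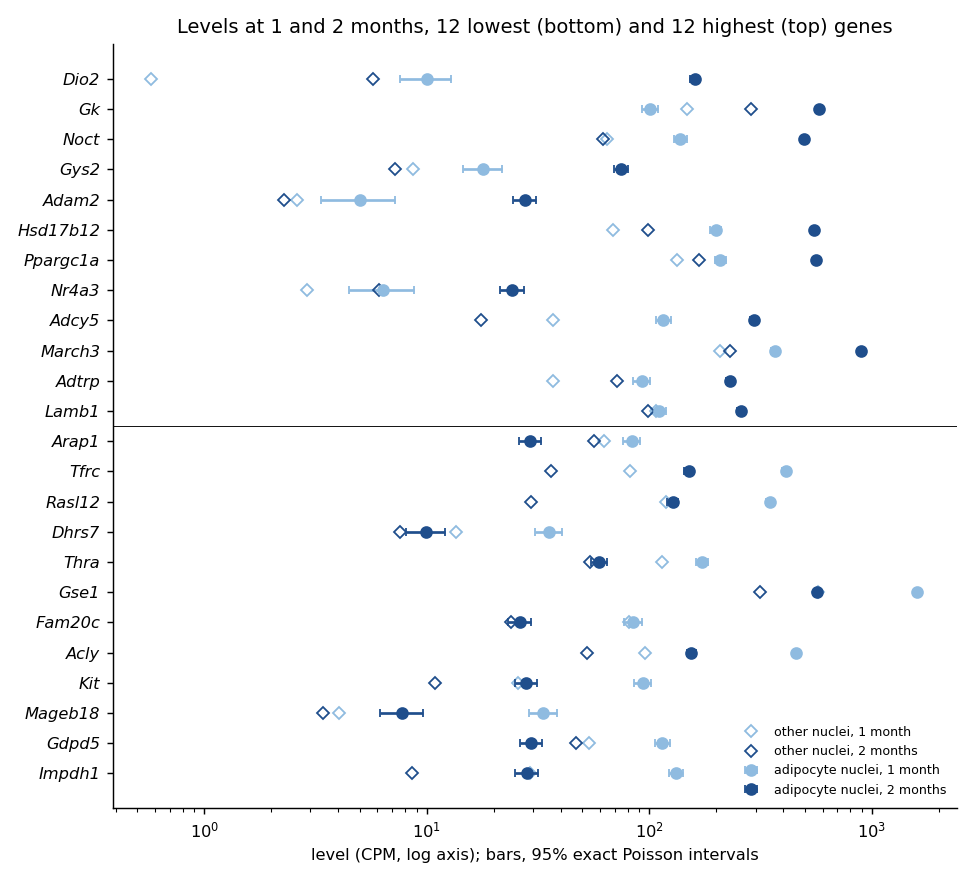
Filled circles show the CPM in adipocyte nuclei at 1 month (light) and 2 months (dark) with 95% exact Poisson intervals, and open diamonds the CPM in the other kept nuclei, on a log axis. For Dio2 the filled circles stand at 9.98 and 160 CPM, and for Tfrc at 410 and 150 CPM, with the diamonds of Tfrc at 81.9 and 36.1 CPM.

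Impdh1 (chr6:29200434-29216364, minus strand), an enzyme of guanine nucleotide synthesis, was the lowest of the 12 genes named on that side. It measured 132 CPM (123 to 141) at 1 month and 28.2 CPM (25.0 to 31.6) at 2 months, so that the 1-month level was 4.68-fold the 2-month level (4.08 to 5.38). Its thinned share was 12.7% and 3.63%, with a background of 2.46% and 1.37%.

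Acly (chr11:100476353-100528000, minus strand), the citrate lyase that supplies acetyl-CoA for fatty acid synthesis, measured 457 CPM (440 to 475) and 155 CPM (147 to 162), a log2 ratio of -1.53. The share of nuclei with an Acly UMI was 29.8% and 13.5%, with a background of 2.46% and 2.39%. Tfrc (chr16:32608920-32632794, plus strand), the transferrin receptor for iron uptake, measured 410 CPM (393 to 427) and 150 CPM (143 to 158), a ratio of -1.42. Its share was 30.2% and 14.7%, with a background of 6.34% (3.80 to 9.83) and 2.05% (0.755 to 4.40). The background was thus the lower at 2 months too, but its intervals overlapped.

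Thra, a thyroid hormone receptor, measured 173 and 59.4 CPM, a ratio of -1.47. Its thinned share, 15.8% and 6.59%, was about that of the vascular, stromal and macrophage nuclei, 14.8% and 7.17%, and its annotated span overlaps that of Nr1d1 on the other strand, so its value is uncertain. The other receptor gene, Thrb, had a ratio of 0.27. Of the 10 tested genes of the thyroid list, Dio2 was the higher and Thra the lower past 2-fold, against 2.41% and 1.1% of all tested genes, with a median of 0.19.

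Gse1, a chromatin-associated gene, measured 1595 CPM (1563 to 1628) and 566 CPM (551 to 581), and 573 and 315 CPM in the other nuclei. Rasl12, a small GTPase gene, measured 349 and 127 CPM, and Gdpd5, a glycerophosphodiesterase, 114 and 29.5 CPM. The thinned share of Rasl12 was 28.8% and 12.6%, with a background of 7.39% (4.64 to 11.1) and 2.39% (0.966 to 4.86). Its background was thus the lower at 2 months too, but the background intervals overlapped. The receptor tyrosine kinase gene Kit measured 93.4 and 28.0 CPM, Fam20c, the kinase of secreted proteins, 84.5 and 26.1 CPM, and Arap1, a GTPase-activating protein, 83.4 and 29.1 CPM. The thinned share of Arap1, 8.16% and 2.99%, was near or below that of the vascular, stromal and macrophage nuclei, 7.39% and 9.56%, so its value in adipocytes is uncertain. Dhrs7, a dehydrogenase, measured 35.3 and 9.91 CPM. Mageb18 measured 33.4 and 7.75 CPM, but 1 nucleus held 38.7% of its 1-month UMIs. Its thinned shares, 0.646% (0.370 to 1.05) and 0.374% (0.199 to 0.639), had overlapping intervals. The shares in the vascular, stromal and macrophage nuclei were 0.352% and 1.02%, so its value in adipocytes is uncertain. In each of these 8 genes the 1-month library was the higher by level, and the Poisson intervals were apart. For Mageb18 that interval does not cover the gathering of UMIs in 1 nucleus.

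In the list of fatty acid and triglyceride synthesis most members stood lower, but mostly under 2-fold. Gk, at 2.47, and the elongation gene Hsd17b12, at 1.44, were counted in the thermogenic and steroid lists and not here. The values below therefore describe this list and not every gene of lipid synthesis. Of 20 tested genes 15 had a ratio below 0, as did 4793 (54.8%) of all 8744 tested genes, with a median of -0.39 against -0.04 over all genes, and Acly alone was 2-fold lower. The citrate carrier Slc25a1 had -0.96, the transcription factor Mlxipl (981 and 542 CPM) -0.85, fatty acid synthase Fasn (307 and 171 CPM) -0.83, the desaturase Scd1 -0.81 and Srebf1 -0.68. The acetyl-CoA carboxylases Acaca and Acacb had -0.35 and -0.43, while the elongase Elovl6 had 0.04 and malic enzyme Me1 0.23. In the other nuclei the list's median was -0.72, and the part of free adipocyte RNA in either value was not tested. The median was -0.26 without the marked nuclei and -0.21 with TMM scaling.

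Lipid uptake and lipolysis genes outside the rule had no member 2-fold apart among 16, with a median of -0.03. Cd36 (905 and 1332 CPM) had 0.55, Fabp4 (812 and 1198 CPM) 0.56, lipoprotein lipase Lpl 0.51 and the lipase cofactor Abhd5 0.61, while the lipase maturation factor Lmf1 had -0.93 and the triglyceride lipase Pnpla2 -0.44. Acsl1, a gene of the rule, measured 2177 and 4350 CPM. Fatty acid oxidation had no member 2-fold apart among 20 and a median of -0.12. Its transcription factor Ppara measured 4936 CPM (4879 to 4993) and 3466 CPM (3430 to 3502), a ratio of -0.51, and Ehhadh of the peroxisome had 0.63. With TMM scaling the medians of the lipid uptake and oxidation lists were above 0, at 0.14 and 0.048.

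Mitochondrial energy genes were mostly well under 2-fold apart. In the citrate cycle list 1 of 16 was lower, the isocitrate dehydrogenase Idh2, at 61.2 and 25.4 CPM with a ratio of -1.12, against 1.1% of all tested genes, and the median was -0.12, or 0.048 with TMM scaling. None of 71 nuclear-encoded respiratory chain and ATP synthase genes was 2-fold apart, with a range of -0.70 to 0.56 and a median of -0.08, which was 0.075 with TMM scaling and 0.00018 without the marked nuclei. The ratios of the 13 genes of the mitochondrial genome lay between 0.06 and 0.67, and their median in the other nuclei was 1.31. The limit on mitochondrial UMIs bounds these levels and removed unequal shares of the libraries, so they are a description only, and 4 of the 13 were below 0 without the marked nuclei. The glucose and insulin list had none of 16 members 2-fold apart and a median of 0.10, of the opposite sign to its mean of -0.04. Its glucose transporter Slc2a4 had a ratio of -0.72 and the regulator Pfkfb3 0.58.

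Genes high in white adipocytes had no member 2-fold apart among 9 and a median of 0.02, which was 0.32 without the marked nuclei and below 0 with no mitochondrial limit, with at least 1000 genes per nucleus and with at least 6 marker UMIs. Nrip1, a corepressor of brown fat genes, measured 594 and 1161 CPM, a ratio of 0.96 that passed 2-fold without the marked nuclei, at 1.07. The oxidase Cyp2e1 measured 554 and 816 CPM and the thyrotropin receptor Tshr 130 and 186 CPM. Leptin (Lep) measured 40.4 CPM (35.4 to 45.9) and 34.5 CPM (31.0 to 38.3), and these intervals overlapped. Of the transcription regulators, 2 of 27 were 2-fold higher, Ppargc1a and Nr4a3, against 2.41% of all tested genes, and the median was -0.02, of the opposite sign to the mean of 0.01 and to the 0.15 of TMM scaling. Pparg, the master regulator of adipocytes, measured 2308 and 2998 CPM, a ratio of 0.38, Zbtb16 2606 and 1487 CPM, a ratio of -0.81, and the repressor Bcl6 -0.72.

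**Figure D4:**
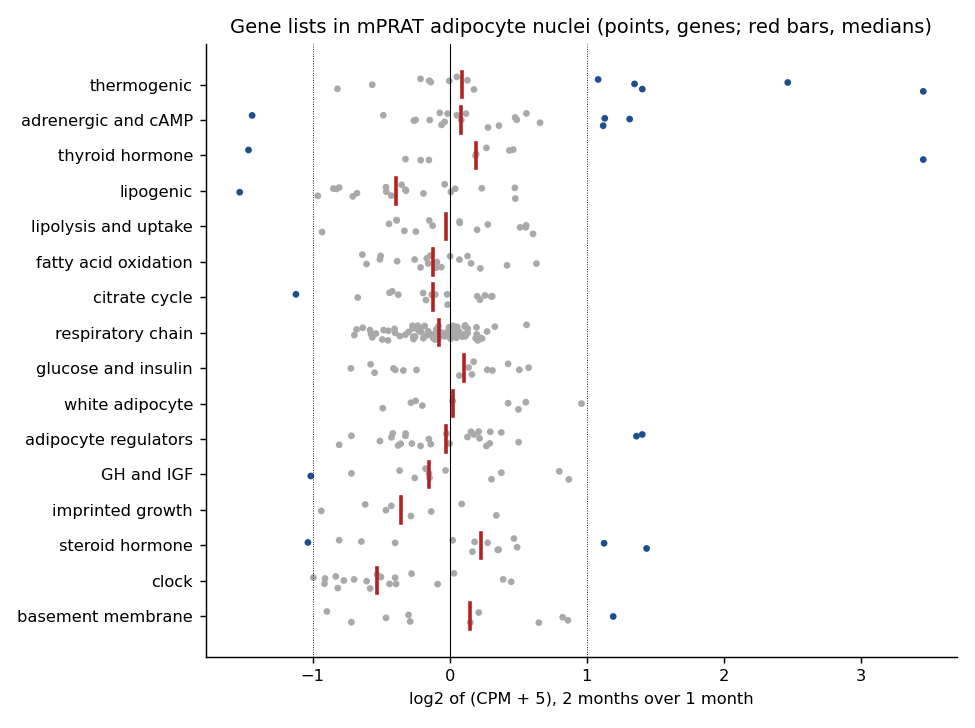
Each point is a tested gene, placed by its log2 ratio of 2 over 1 months within its list. Red bars are list medians, which over the 16 lists drawn lie between -0.53 for the clock and 0.23 for the steroid hormone list. The other lists are not drawn. Blue points are at least 2-fold apart.

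Growth hormone signalling genes were split. The receptor Ghr measured 3499 CPM (3451 to 3548) and 6097 CPM (6050 to 6146), a ratio of 0.80, and its target Cish 92.5 and 43.3 CPM. The ratio of Cish, -1.01, was under 2-fold in 9 of 17 alternatives, and those that change only the minimum level cannot move it. Over the list of 12, 1 was lower, against 1.1% of all tested genes, and the median was -0.15, or 0.00701 with TMM scaling. Of 8 tested imprinted genes none was 2-fold apart, with a median of -0.35; Meg3 had -0.94 and Igf2r -0.62. Without the marked nuclei Meg3, at 28.5 and 10.5 CPM, passed 2-fold with -1.12, and Igf2r had -0.94. Igf2 had 4 UMIs at 1 month and 1 UMI at 2 months, too few for a ratio.

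In the steroid list 2 of 14 were higher and 1 lower, against 2.41% and 1.1% of all tested genes, with a median of 0.23. In that list 1 of 11 was higher without the marked nuclei, and the lower member, Sgk1, was under the minimum level. Beside Hsd17b12, the reductase Srd5a1 had a ratio of 1.13, and 0.42 without the marked nuclei. Sgk1, a target of corticosteroid receptors, measured 16.5 and 5.49 CPM, and its log2 ratio was -1.04 both with and without the marked nuclei. In the basement membrane list 1 of 11 was higher, Lamb1, against 2.41% of all tested genes, with a median of 0.15. Col4a2 had a ratio of 0.86, Lama4 0.82 and Col5a3 -0.90. This median changed sign when the mitochondrial limit was 5%, when 6 marker UMIs were asked for, when single nuclei were averaged and when no minimum level was set.

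Clock genes had the lowest median among the lists drawn, -0.53, with 16 of 19 below 0, against 54.8% of all tested genes, and none 2-fold apart. Bhlhe41, just under the threshold, had a ratio of -0.995, Dbp (44.5 and 21.3 CPM) -0.91, Ciart -0.83, Arntl -0.77 and Per3 -0.58, while Clock had 0.45 and Npas2 0.39. Arntl and Dbp, genes of opposed phases, both had ratios below 0 and under 2-fold. The part of collection time in these values was not tested. Without the marked nuclei Ciart, with -1.17, and Dbp, with -1.02, were 2-fold lower, and 15 of 17 tested members were below 0. In iBAT the clock median was -0.24, with Arntl at 0.64. The hour of collection is not in the labels.

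The remaining lists added few 2-fold differences. In the creatine and calcium list 2 of 5 tested members were higher, Gatm and Alpl, against 2.41% of all tested genes, and neither was without the marked nuclei, at -0.000388 and 0.66. The inositol trisphosphate receptor gene Itpr2 of that list measured 1242 and 671 CPM. None of 11 secreted factors was 2-fold apart, among them Vegfa at 744 and 436 CPM and a ratio of -0.76. None of 10 sterol synthesis, 12 growth factor receptor and guidance, 2 proliferation and 69 ribosomal protein genes was either. The ribosomal protein genes had 61 of 69 ratios above 0, with a median of 0.25 in mPRAT, and 61 of 66 with 0.37 in iBAT. Without the marked nuclei of mPRAT 19 of 68 were below 0, and the median was 0.17. Only 2 of the 69 were at least as high in adipocyte nuclei as in the others where they peaked. In the other nuclei of mPRAT the list's median was -0.04. The part of RNA quality or library composition in these ratios was not tested. Erbb4, the receptor of neuregulins, had a ratio of 0.84 and the sterol enzyme gene Fdft1 -0.83.

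The iBAT adipocyte nuclei, 8644 at 1 month and 10297 at 2 months, share no library with mPRAT. Muscle markers there measured 529 and 2961 CPM. Of 8403 genes tested in iBAT 127 (1.51%) were 2-fold higher and 102 (1.21%) lower, together 2.73%. Over the 4478 genes tested in both depots and at least as high in mPRAT adipocyte nuclei as in the others of the library where they peak, 23 (0.514%) were higher in mPRAT, 29 (0.648%) in iBAT and 9 in both, which is 39.1% of the mPRAT list and 31.0% of the iBAT list. These 9 were 9330159F19Rik, Adam2, Adcy3, Adtrp, Dio2, Gk, Hacd2, Noct and Ppargc1a, and none of the 23 had the opposite sign in iBAT. Of all 4478 genes, 70.4% had the same sign in both depots, namely 81.4% of those above 0 in mPRAT and 63.9% of those below 0. Of the lower genes, 43 (0.96%) in mPRAT and 57 (1.27%) in iBAT, 21 were shared, 48.8% and 36.8% of the lists, and 2 of the 43 had the opposite sign. Both directions together made up 1.47% of these genes in mPRAT and 1.92% in iBAT. Over the 3422 genes at least as high in adipocyte nuclei in both mPRAT libraries, 20 (0.584%) were higher in mPRAT, 26 (0.76%) in iBAT and 8 in both, the same names without Gk. On the lower side the counts were 35 (1.02%), 46 (1.34%) and 17, and both directions together made up 1.61% and 2.1%.

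By gene, Gk had a ratio of 2.47 in mPRAT and 2.54 in iBAT, Noct 1.80 and 1.47 and Adcy3 1.13 and 1.56. Among the lower genes Acly had -1.53 and -1.44, Tfrc -1.42 and -1.44, Kit -1.58 and -1.51, Gse1 -1.49 and -1.42, and Gdpd5 -1.79 and -2.21. Values that were farther apart were those of Dio2, 3.46 and 2.24, Gys2, 1.80 and 0.74, Hsd17b12, 1.44 and 0.67, March3, 1.28 and 0.49, Dhrs7, -1.43 and -0.49, and Ucp1, 1.08 and 0.55. The difference between depots was not tested for any gene. White adipocyte genes had a median of 0.69 in iBAT, where 2 of 9 were 2-fold higher, against 1.51% of all genes tested there and a median of 0.02, and lipogenic genes one of -0.09. Age and library cannot be told apart in either depot.

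**Figure D5:**
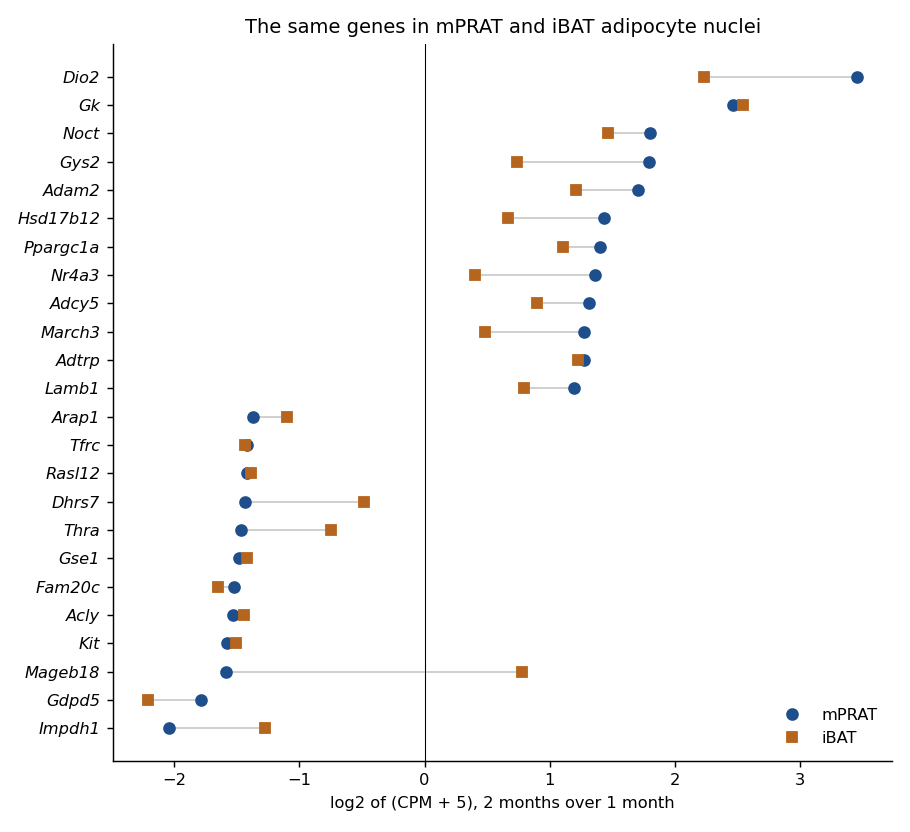
Log2 ratios of 2 over 1 months for the 12 highest and 12 lowest genes in mPRAT (circles) and iBAT (squares). For 23 of the 24 genes both symbols lie on the same side of 0, as do 69.0% of all 7889 genes tested in both depots, and Mageb18, at -1.59 and 0.78, is the exception. The 24 were chosen for the size of their mPRAT ratio, unlike the 7889. Nr4a3 had a UMI in only 0.0810% and 0.505% of iBAT adipocyte nuclei.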

How the data were processed

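The authors deposited raw UMI counts for each gene in each nucleus, made with Cell Ranger 7.0.0, per the file headers, on mm10, per the submitters' processing notes. The annotation, the counting of intronic reads and of strand and any later filter are not given in the sources used here. Counts of the adipocyte nuclei were summed per library and divided by their total to give counts per 1000000 counts (CPM). The log2 ratio is that of CPM at 2 months plus 5 over CPM at 1 month plus 5, over genes with a mean of at least 10 CPM. A gene was called at 2-fold. Intervals are 95% exact Poisson or exact binomial intervals, and a count of 0 allows up to 3 counts. 1 UMI was worth 0.172 CPM at 1 month and 0.0981 CPM at 2 months. The ratios and intervals were tested on simulated data. These were independent Poisson counts, so they cannot show the effect of UMIs gathered in single nuclei or of spread between libraries.

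Members, lists and comparisons were chosen with earlier results of these data known. The named genes are the 12 highest and 12 lowest tested genes at least as high in adipocyte nuclei as in the other kept nuclei of the library where they were higher, without clone-like names (2 higher and 4 lower past 2-fold among the genes at least as high in adipocyte nuclei), up to 4 members of each list with the largest ratios, up to 5 of the genes higher in the other nuclei, and Ucp1, Pparg, Lep, Ghr and Igf2. Some genes that this rule names are not reported here. Other list members given were chosen after their values were seen. Gene positions are from GENCODE M21 on GRCm38, matched by identifier for 32158 of 32285 genes. Doublets were kept. As an alternative, the highest scrublet scores were removed, 4.65% and 6.33% of scored nuclei, since the method's own threshold marked 0% and 2.59%. Other alternatives changed the nucleus filters, the adipocyte rule, the scaling, the depth per nucleus, the value added and the minimum level. Python 3.11.15, numpy 2.4.6, pandas 2.3.3, scipy 1.17.1, scanpy 1.11.5 and edgeR 4.0.16 (TMM factors only) were used.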

Additional observations from a re-analysis of the deposited data

Results flagged for a closer look

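Among 120 tested named genes, 2 were at least 1.5-fold apart in opposite directions in the depots, each resting on 1 library per age, and the difference was not tested. Mageb18 had a log2 ratio of 2 over 1 months of -1.59 in mPRAT and 0.78 in iBAT. Pde10a, a phosphodiesterase gene, had -1.44 in mPRAT and 0.69 in iBAT. Single nuclei carried much of both genes in mPRAT at 1 month, 38.7% of the UMIs of Mageb18 and 53.9% of those of Pde10a. Without the nuclei that carry kidney, epithelial, mesothelial or adrenal markers Pde10a had -0.38 and Mageb18 -1.17. Both were under 2-fold in mPRAT as the mean of single nuclei and after thinning. In iBAT the thinned share of Mageb18 was 0.436% and 0.634% of adipocyte nuclei, below the 1.57% and 2% of vascular, stromal and macrophage nuclei.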

How the results depend on the processing

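No paired analysis was possible because each group has 1 library. Of 40 named genes at least 2-fold apart, 22 stayed so in all 17 alternatives, among them Dio2, Gk, Noct, Ppargc1a, Acly, Impdh1 and Tfrc. The 17 include the settings that change only the minimum level, in which no gene's ratio can move. The cause of the changes below was not tested. Genes 2-fold higher, 211, numbered 117 with at least 6 marker UMIs, 77 as the mean of nuclei, 109 after thinning, 98 at a mean of at least 30 CPM, 84 with 20 CPM added, 61 without the marked nuclei, and 62 with the marked nuclei left out and at least 3 UMIs of the 4 adipocyte markers; 7 of the 211 are themselves markers and drop out of those settings by construction. Genes 2-fold lower, 96, numbered 55 with TMM, 54 at 30 CPM, 186 with 1 CPM added and 30 with 20 CPM added. Of genes at least as high in adipocyte nuclei, the 25 higher became 61 with TMM, 14 with 20 CPM added, and 42 and 43 in the 2 settings without marked nuclei. The 44 lower became 72 with at least 1000 genes per nucleus, 20 with TMM, 94 with 1 CPM added and 16 with 20 CPM added. With TMM only the adipocyte levels were rescaled, so the comparison with the other nuclei in these counts mixes 2 scales. With TMM the list medians were 0.27 (thermogenic), -0.21 (lipogenic), 0.14 (lipolysis and uptake), 0.048 (oxidation), 0.048 (citrate cycle), 0.075 (respiratory chain), 0.20 (white), 0.28 (glucose), 0.23 (adrenergic), 0.15 (regulators), 0.00701 (growth hormone), 0.41 (steroid), 0.37 (thyroid), -0.35 (clock) and 0.30 (basement membrane). Without the marked nuclei they were 0.20 (thermogenic), -0.26 (lipogenic), 0.32 (white), 0.20 (glucose) and 0.30 (basement membrane), and with 3 UMIs of the 4 markers as well -0.24 (lipogenic), 0.33 (white), 0.20 (glucose) and -0.29 (growth hormone). With no mitochondrial limit they were -0.00733 (thermogenic), 0.00960 (glucose), -0.14 (imprinted), -0.023 (adrenergic) and -0.069 (white). The white median was also -0.063 with at least 1000 genes per nucleus and -0.044 with 6 marker UMIs, and the lipid uptake and regulator medians, -0.03 and -0.02, changed sign in several settings. The mean of nuclei gave 0.013 (oxidation), 0.19 (glucose) and -0.24 (basement membrane), and thinning 0.14 (white). The basement membrane median was also -0.15 with a 5% mitochondrial limit, -0.18 with 6 marker UMIs, -0.29 with no minimum and 0.65 at 30 CPM. Gatm changed sign to -0.000388 without the marked nuclei. That setting was planned, while the settings asking for 1 or for 3 UMIs of the 4 adipocyte markers, and the comparison with other nuclei in both libraries, were chosen after seeing the data. Fewer nuclei at 1 month limit the precision of low genes such as Adam2, Nr4a3 and Pde4b.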
